A study of Mus musculus with 2 samples.

Results

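The 9 CXC chemokine genes described here are Cxcl1, Cxcl2, Cxcl5, Cxcl9, Cxcl10, Cxcl12, Cxcl13, Cxcl14 and Cxcl16, out of 31054 genes counted in these libraries. They were selected on earlier measured values of these same libraries, namely their levels in the cell classes and their ratios between the sorted groups, so those levels and ratios are given as descriptions and nothing is supported by them. All 9 genes were found by symbol in the gene list of each library.

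Gonadal white adipose tissue of 18-month-old male p16-CreERT2/R26-LSL-tdTomato mice was dissociated, and cells negative for the endothelial antigen CD31 and the leukocyte antigen CD45 were sorted by tdTomato fluorescence. The p16 locus of these mice drives a Cre recombinase that, once tamoxifen is given, removes a stop cassette and leaves permanent tdTomato expression. Thus all the animals carried both alleles and received tamoxifen, and the labels set the groups apart by the sort alone. Tom+ cells are the p16high fraction and Tom- cells the rest. A cell labelled before the collection stays labelled whether or not it still makes p16, and the number of animals behind each library is not given in the sources used here. One 3′ droplet library was made of each fraction, so there was 1 library per sorted group, no replicate, no test and no p-value. A difference between the sorted fractions cannot be told apart from a difference between the preparations.

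CXC chemokines are small secreted proteins that steer leukocytes through G protein-coupled receptors. CXCL1, CXCL2 and CXCL5 bind CXCR2 and draw neutrophils, CXCL9 and CXCL10 are induced by interferons and draw T cells through CXCR3, CXCL12 retains haematopoietic and lymphoid cells through CXCR4, and CXCL13 guides B cells through CXCR5. CXCL14 is made by many epithelia and stromal cells, and CXCL16 is a transmembrane ligand of CXCR6 that is released by shedding. In adipose tissue the progenitors of the stroma and the mesothelium that covers the visceral depots are known sources of such chemokines, and several of them belong to the secretory program attributed to senescent cells.

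Cxcl5, Cxcl1 and Cxcl2 lie in 1 cluster on chromosome 5 of GRCm38, at 90759360 to 90761624, 90891241 to 90893115 and 90903871 to 90905938 on the plus strand. Cxcl9 (92321347 to 92328079) and Cxcl10 (92346638 to 92348889) lie on the minus strand of the same chromosome, and Cxcl13 (95956951 to 95961068) on the plus strand. Cxcl12 is on chromosome 6 (117168535 to 117181367, plus strand), Cxcl16 on chromosome 11 (70453983 to 70459984, minus strand) and Cxcl14 on chromosome 13 (56288643 to 56296551, minus strand). Cxcl10 overlaps Art3 and Cxcl16 overlaps Zmynd15, in each case on the other strand. No word of 60 bases was shared between transcripts of any pair of the 9 genes, but Cxcl2 shared 116 such words with its paralog Cxcl3. A read lying wholly within shared sequence could not be assigned to either gene, and how many reads did so was not tested.

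The promoters of the CXCR2 and CXCR3 ligands are shown because these genes differed between stromal cells rich and poor in NF-kappaB or interferon target RNA. Cxcl13 differed between such cells too, and its promoter, which is not shown, held none of the motifs below. RefSeq windows of 250 bases upstream of the transcription start were found for 7 of the 9 genes, and not for Cxcl5 and Cxcl16. Capitals mark matches, on either strand, to the kappaB consensus of NF-kappaB or to the interferon-stimulated response element core GAAANNGAA. The sequences are 5′ to 3′ on the strand of the gene (GRCm38.p6), from chr5:90890995-90891244 (+) for Cxcl1, chr5:90903649-90903898 (+) for Cxcl2, chr5:92328080-92328329 (-) for Cxcl9 and chr5:92348890-92349139 (-) for Cxcl10.
Cxcl1: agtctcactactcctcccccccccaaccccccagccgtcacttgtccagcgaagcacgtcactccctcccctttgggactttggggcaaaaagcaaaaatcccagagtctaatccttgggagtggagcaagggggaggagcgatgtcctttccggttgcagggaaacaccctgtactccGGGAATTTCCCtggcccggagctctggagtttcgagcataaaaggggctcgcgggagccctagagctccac
Cxcl2: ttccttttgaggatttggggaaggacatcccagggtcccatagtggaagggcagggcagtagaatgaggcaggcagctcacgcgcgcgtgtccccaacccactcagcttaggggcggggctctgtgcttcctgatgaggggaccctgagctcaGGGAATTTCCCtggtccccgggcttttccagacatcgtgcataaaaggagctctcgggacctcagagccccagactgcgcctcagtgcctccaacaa
Cxcl9: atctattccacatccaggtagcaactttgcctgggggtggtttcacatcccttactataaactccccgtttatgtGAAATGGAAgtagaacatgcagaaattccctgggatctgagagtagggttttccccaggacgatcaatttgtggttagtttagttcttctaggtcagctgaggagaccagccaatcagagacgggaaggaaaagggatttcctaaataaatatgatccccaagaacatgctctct
Cxcl10: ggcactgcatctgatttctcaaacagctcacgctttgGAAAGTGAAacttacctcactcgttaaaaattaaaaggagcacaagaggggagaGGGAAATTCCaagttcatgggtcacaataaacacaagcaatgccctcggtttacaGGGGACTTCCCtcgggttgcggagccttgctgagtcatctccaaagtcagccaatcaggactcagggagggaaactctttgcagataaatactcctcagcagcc

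Cxcl1 and Cxcl2 each held 1 stretch of 11 bases that matched the kappaB consensus on both strands, from base -71 to -61 and from base -97 to -87, counted back from the base before the start. Cxcl10 held 2 kappaB stretches, at -159 to -150 and -104 to -94, and 1 response element core at -213 to -205. In Cxcl9 the core was found at -175 to -167 and no kappaB match was found. Among the 3 other windows, Cxcl14 held 1 core (-172 to -164) and 1 match to the GAS element TTCNNNGAA (-191 to -183), and Cxcl12 and Cxcl13 held none of the 3 motifs. Over all 32851 windows of this length, 7.25% held the kappaB consensus, 7.13% the core and 7.02% the GAS element. A match is a description of the letters, not a bound site, and matches of different motifs did not overlap in these windows, whereas both-strand matches of the kappaB consensus did and were joined into 1 stretch.

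After filtering (over 1000 and under 7000 genes, mitochondrial share under 8%), 3524 of 5566 Tom+ barcodes and 6717 of 11838 Tom- barcodes remained. Mesothelial cells, with at least 10 UMIs (unique molecular identifiers, each standing for 1 captured RNA molecule) of Msln, Upk3b, Krt19, Lrrn4 and Upk1b together, numbered 250 and 1887. Stromal cells, with fewer than 5, numbered 3263 and 4800. Only 11 and 30 cells fell between the limits; 1 Tom+ and 16 Tom- cells sat just inside the stromal limit at 4 UMIs, and 0 and 2 just inside the mesothelial limit at 10. Median depth was 14235 and 11270 UMIs in stromal cells and 18601.5 and 14753 in mesothelial cells. Mesothelial markers that were not in the rule bore the label out (8 genes, together 3356 and 3470 CPM, or UMIs per 1000000 UMIs of the class, against 241 and 367 in stromal cells). The stromal progenitor list (8 genes, Pdgfra and Dcn among them) stood at 47261 and 53019 CPM in stromal cells and at 14757 and 17024 CPM in mesothelial cells. In mesothelial cells single stromal markers were still found at 3.87% to 54.0% (Tom+) and 6.99% to 66.1% (Tom-) of their stromal level. At such levels stromal RNA and low expression by mesothelial cells cannot be told apart.

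The libraries also carried RNA of cells that the sort should have removed. Immunoglobulin genes summed to 60265 CPM in Tom+ and 15551 CPM in Tom- stromal cells, and the 14 immune markers to 1979 and 975 CPM. Jchain, which is on both lists, made up 1577 and 825 CPM of the immune sum. In mesothelial cells the immune list was at 636 CPM in the Tom+ library and 63.3 CPM in the Tom- library, with the macrophage genes Lyz2 (275 and 10.8 CPM) and C1qa (128 and 5.28 CPM) among its members. Of the 14 immune markers, 2 were at 0 in Tom+ mesothelial cells (Cd79b and Nkg7), and none was at 0 in the other groups. The lymphoid stroma list (Ccl19, Ccl21a, Madcam1, Cr2) was at 19.8 and 31.1 CPM in stromal cells, mostly Ccl19 (19.6 and 23.5 CPM) and, in the Tom- library, Ccl21a (0.0587 and 7.53 CPM), with Cr2 at 0 in the Tom- library. Barcode sequences overlapped as well, since 2224 barcodes were listed in both libraries. Among the cells that passed, 404 of 3263 Tom+ stromal, 100 of 250 Tom+ mesothelial, 75 of 4800 Tom- stromal and 207 of 1887 Tom- mesothelial cells carried such a barcode. Their median was 27490.5 to 33369 UMIs in the library where they passed and 637 to 959 in the other. Beside the ratios between libraries, values without these cells are given where they turn a direction, end a call or move the ratio by over 1.5-fold.

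Of the 9 chemokines, Cxcl1 was the most abundant in both cell classes of both libraries. It stood at 5001 CPM in Tom- stromal cells, 1932 CPM in Tom+ stromal cells, 1038 CPM in Tom- mesothelial cells and 611 CPM in Tom+ mesothelial cells, and the 95% counting intervals of these 4 levels did not overlap. Counts are of molecules captured at the 3′ end, so levels were not divided by transcript length. Cxcl12 was next in stromal cells, at 605 (Tom+) and 808 CPM (Tom-), whereas in mesothelial cells Cxcl10 came next, at 234 and 278 CPM. The least abundant were Cxcl5 in stromal cells (11.8 and 15.0 CPM) and Cxcl9 in mesothelial cells (0.188 and 2.66 CPM). The 4 groups separated beyond counting error for 5 of the 9 genes; the neighbours in order that overlapped were Tom+ stromal and Tom+ mesothelial cells for Cxcl2 and Cxcl5, and both mesothelial groups for Cxcl13 and Cxcl16.

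**Figure D1:**
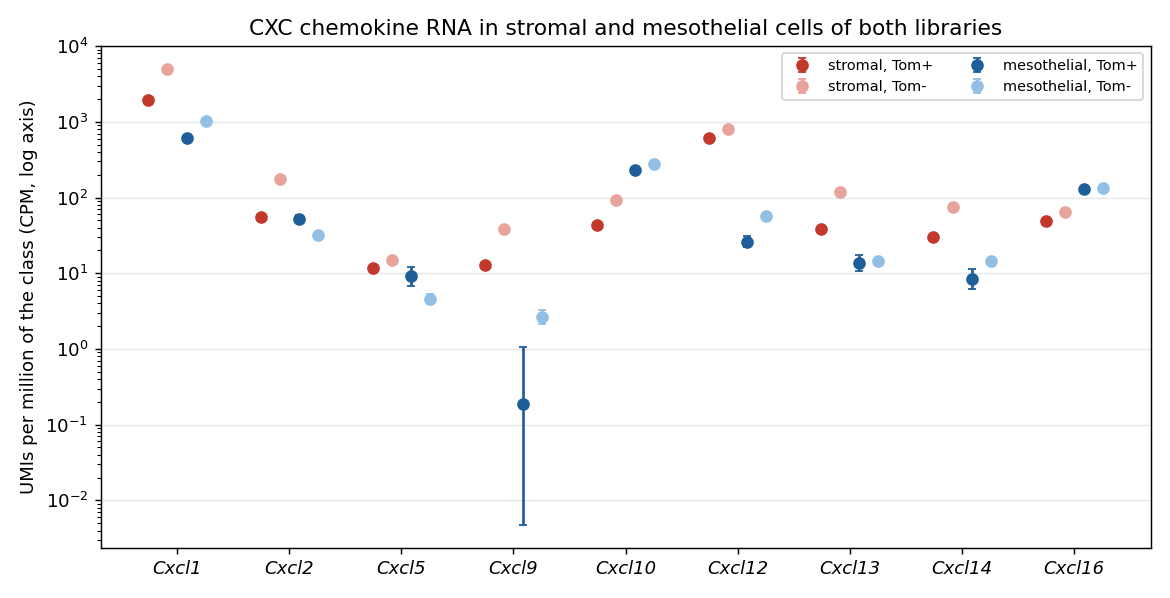
Level of each chemokine in CPM (log axis) in stromal (red) and mesothelial (blue) cells of the Tom+ (dark) and Tom- (light) libraries, with exact Poisson 95% intervals for counting error, mostly smaller than the points. Cxcl10 and Cxcl16 sit higher in both mesothelial groups than in both stromal groups, and Cxcl12 far lower.

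In stromal cells all 9 chemokines were lower in the Tom+ than in the Tom- library, and 6 of the 9 by at least 1.5-fold. Of the 9778 genes that averaged 5 CPM or more over both libraries, 3.25% were lower and 3.86% higher by that fold, and no chemokine was higher. The 9 chemokines had a median Tom+ over Tom- log2 ratio of -1.31, against 0.07 for all these genes. Because the genes were chosen by values of this same contrast, nothing is read from the count. In mesothelial cells, 4 of the 9 were lower and 2 higher by 1.5-fold, where 1.16% of 10014 genes were lower and 1.87% higher; Cxcl9, among the 4, averaged under 5 CPM there. The median of the 9 was -0.25, against 0.03 for all genes.

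**Figure D2:**
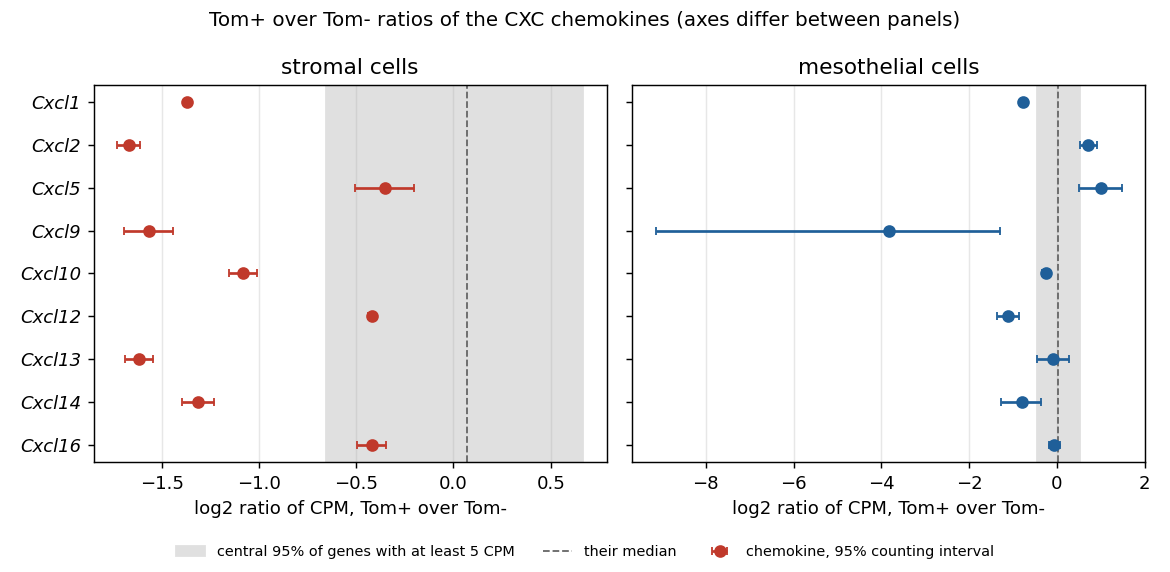
log2 ratio of CPM, Tom+ over Tom-, for each chemokine in stromal (left) and mesothelial cells (right), with exact 95% counting intervals; the grey band holds the central 95% of genes averaging 5 CPM or more and the dashed line is their median. In stromal cells Cxcl1, Cxcl2, Cxcl9, Cxcl10, Cxcl13 and Cxcl14 lie left of the band, and the mesothelial Cxcl9 point rests on 1 Tom+ UMI.

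Among the CXCR2 ligands, Cxcl1 differed most in absolute level. Stromal cells held 98713 Cxcl1 UMIs in the Tom+ and 289451 in the Tom- library, and the log2 ratio of the levels was -1.37 (-1.38 to -1.36). In mesothelial cells it was -0.76 (-0.82 to -0.71), on 3253 and 33571 UMIs. That mesothelial difference was under 1.5-fold in 4 alternatives. The log2 ratio was -0.54 with each cell weighted equally and -0.50 without cells holding stromal markers. It was -0.48 without barcodes listed in both libraries (720 and 1007 CPM). Without cells holding markers of other types it was -0.29, with 50 of 250 Tom+ and 1593 of 1887 Tom- cells left. Such cells had at least 10 UMIs of immune, immunoglobulin, endothelial, mural and Schwann cell markers together. That rule does not tell a cell of another type from one with free RNA of it. The stromal ratio was negative in the lowest, middle and highest range of cells for each of the 6 gene lists used below. These ranges were cut within each library and are not matched in list level between the libraries. With each cell thinned to 5000 UMIs, 71.2% (69.5 to 72.7) of Tom+ and 90.4% (89.5 to 91.3) of Tom- stromal cells had a Cxcl1 UMI, and 51.6% (45.2 to 57.9) and 69.1% (67.0 to 71.2) of mesothelial cells. Unthinned shares were 83.0% and 95.1% in stromal and 75.6% and 88.9% in mesothelial cells. Stromal cells with the UMI also held fewer molecules in the Tom+ library, at a mean of 14.5 against 27.7 after thinning. In stromal cells both the share of Cxcl1-positive cells and the level in them were therefore lower. In mesothelial cells the share was lower. The mean in positive cells was 6.90 (Tom+) against 7.07 (Tom-) after thinning to 5000 UMIs, and 4.13 against 5.14 after thinning to 3000. Without thinning the Tom+ mean was the lower one as well. These means have no interval, so the size of their difference is not settled.

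Cxcl2 reached 55.7 CPM in stromal cells of the Tom+ and 177 CPM in those of the Tom- library. Its log2 ratio, -1.67 (-1.73 to -1.61), was the lowest stromal ratio of the 9. It was found in far fewer cells than Cxcl1, at 5.53% (4.76 to 6.39) and 11% (10.1 to 11.9) of thinned stromal cells (8.64% and 14.8% unthinned). Of the cells with at least 10 Cxcl2 UMIs, 68 of 75 in the Tom+ and 227 of 229 in the Tom- library had at least 10 Cxcl1 UMIs as well, a level found in 48.6% and 67.5% of all stromal cells. They made up 4.28% and 7.01% of the cells with 10 Cxcl1 UMIs. In mesothelial cells the order was the other way, with 52.4 CPM in the Tom+ and 31.8 CPM in the Tom- library (log2 ratio 0.72, 0.52 to 0.91). That Tom+ level rested on 279 UMIs, of which a single cell held 158. Without cells holding at least 5 UMIs of 6 macrophage genes (19 of 250 Tom+ and 13 of 1887 Tom- mesothelial cells), a choice made once the values were known, Cxcl2 was at 22.9 and 32.2 CPM and the log2 ratio was -0.49. Without barcodes listed in both libraries the ratio was -0.26, so its direction in mesothelial cells turned on few cells.

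Cxcl5 was rare. Its stromal level was 11.8 CPM (10.8 to 12.7) for Tom+ and 15.0 CPM (14.0 to 16.0) for Tom- cells, with a UMI in 0.986% and 1.89% of thinned cells (1.81% and 2.77% unthinned). In the Tom+ library 2 stromal cells held at least 50% of the 601 UMIs, with 227 in a single cell, and in the Tom- library 14 cells held as much of 869. Without barcodes listed in both libraries the Tom+ level was 4.81 CPM and the log2 ratio was -1.67 in place of -0.35 (-0.50 to -0.20). In mesothelial cells the levels were 9.21 CPM (49 UMIs) and 4.57 CPM (148 UMIs), a log2 ratio of 1.01 (0.51 to 1.48), and 21 of the 49 Tom+ UMIs were in 1 cell. Without barcodes listed in both libraries they were 17.1 and 5.43 CPM, a log2 ratio of 1.66. Against stromal cells of the same library the Tom+ mesothelial log2 ratio was -0.35 (-0.80 to 0.07), and 1.83 without barcodes listed in both libraries.

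The CXCR3 ligands differed from each other by cell class. Cxcl10 was higher in mesothelial than in stromal cells of the same library, by a log2 ratio of 2.43 (2.33 to 2.53) in Tom+ and 1.59 (1.55 to 1.64) in Tom- cells. After thinning, 26.4% (21.0 to 32.3) of Tom+ and 28.1% (26.1 to 30.2) of Tom- mesothelial cells had a Cxcl10 UMI, against 5.53% (4.76 to 6.39) and 9.72% (8.87 to 10.6) of stromal cells (40.0% and 41.2% against 9.32% and 14.4% unthinned). Between the libraries the mesothelial levels were 234 and 278 CPM (log2 ratio -0.25, -0.33 to -0.16). Their order turned without barcodes listed in both libraries (304 and 272 CPM, log2 ratio 0.16). Without cells holding markers of other types the levels were 299 and 280 CPM (log2 ratio 0.09). That left 50 Tom+ cells with 200 Cxcl10 UMIs and 1593 Tom- cells, so the order there is not settled. The stromal levels were 43.5 and 92 CPM (log2 ratio -1.08, -1.15 to -1.01).

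Cxcl9 showed the reverse order of classes. It was at 13 and 38.6 CPM in stromal cells (log2 ratio -1.57, -1.69 to -1.44), with a UMI in 0.954% and 2% of thinned cells (2.39% and 3.23% unthinned), and at 2.66 CPM, from 86 UMIs, in Tom- mesothelial cells. A single Cxcl9 UMI was found in the 250 Tom+ mesothelial cells, a ratio of Tom+ over Tom- of 0.0707 on a linear scale with a log2 counting interval from -9.14 to -1.31. Without barcodes listed in both libraries the counts were 0 Tom+ and 56 Tom- UMIs (2.22 CPM), and the limit of 3 counts gives a log2 ratio of -0.71 as a bound. No thinned Tom+ mesothelial cell of 250 had a UMI (upper limit 1.2%), and 0.593% (0.296 to 1.06) of Tom- mesothelial cells had one, so a difference was not detectable at this depth. The Tom- mesothelial level was 6.89% of the stromal level, below the lowest of the stromal markers there (6.99%), and how much of it came from stromal RNA was not tested. Stromal Cxcl9 was concentrated in few cells, with at least 50% of the UMIs in 2 Tom+ and 6 Tom- cells. Without barcodes listed in both libraries the stromal levels were 4.81 and 32.7 CPM and the log2 ratio -2.77, and with stricter class limits the ratio was -2.33.

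Stromal cells rich in Cxcl9 or Cxcl10 carried RNA of interferon targets and of B-lineage cells. In the 8 Tom+ and 32 Tom- stromal cells with at least 10 Cxcl9 UMIs, the interferon response list (11 genes) was at 1725 and 1239 CPM, against 187 and 252 CPM in the other stromal cells. Immunoglobulin RNA was at 97817 and 103326 CPM in those cells and at 60136 and 14440 CPM in the others. In the 59 Tom+ and 135 Tom- cells with at least 10 Cxcl10 UMIs, immunoglobulin RNA reached 276886 and 131058 CPM, against 53824 and 10725 CPM. Without the 145 Tom+ and 66 Tom- stromal cells that spent over 1% of their UMIs on immunoglobulin genes, also picked with the values known, Cxcl9 was at 12.5 and 27.5 CPM (log2 ratio -1.14) and Cxcl10 at 39.2 and 86.0 CPM (log2 ratio -1.13). The part of immune cells or of their free RNA in these levels was not tested beyond that.

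Cxcl12, the CXCR4 ligand, was found in most stromal cells. Its stromal level was 605 CPM (598 to 612) for Tom+ and 808 CPM (801 to 816) for Tom- cells, and the mesothelial levels were 26.1 and 56.3 CPM. These were 4.32% and 6.97% of the stromal levels, within or just below the range of the stromal markers found in mesothelial cells of the same library. A UMI was found in 76.9% (75.4 to 78.3) and 80.2% (79.0 to 81.4) of thinned stromal cells, and in 6.40% (3.70 to 10.2) and 12.0% (10.6 to 13.6) of mesothelial cells (88.9%, 89.7%, 19.2% and 24.8% unthinned). The mesothelial ratio of Tom+ over Tom- was -1.11 (-1.37 to -0.86), and -0.29 without cells holding stromal markers. Its stromal log2 ratio of Tom+ over Tom- was -0.42 (-0.44 to -0.40), under the 1.5-fold limit. Cxcl12 was spread broadly, with 10.2% and 13.3% of stromal UMIs in the 1% of cells that held most.

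Cxcl13, by contrast, came from a handful of cells of the stromal class, which was set only by few mesothelial UMIs. The Tom+ level was 38.8 CPM (37.1 to 40.5) against 119 CPM (116 to 122) for Tom-, that is, -1.62 (-1.69 to -1.55) on the log2 scale. A UMI was present in 1.78% (1.35 to 2.31) and 4.46% (3.88 to 5.11) of thinned stromal cells (3.28% and 7.46% unthinned). Of 1982 Tom+ UMIs, at least 50% were in 3 cells and 536 in 1, and of 6894 Tom- UMIs, at least 50% were in 10 cells and 668 in 1. The counting intervals do not cover this spread over cells. In the 20 Tom+ cells with at least 10 Cxcl13 UMIs, immune markers stood at 15727 CPM and immunoglobulin RNA at 243337 CPM, against 1833 and 58317 CPM in the other stromal cells. The 64 such Tom- cells had 6271 and 81605 CPM, against 863 and 14160 CPM. Jchain was on both lists, so their values are not separate readings. The stromal progenitor list was lower in the cells rich in Cxcl13, at 17478 against 47578 CPM (Tom+) and 32249 against 53456 CPM (Tom-). Whether they were stromal cells, immune cells or mixtures was not tested. The lymphoid stroma list was at 26 and 48.6 CPM in these cells and at 19.7 and 30.7 CPM in the rest. Without cells holding macrophage UMIs the Tom+ level was 26.7 CPM and the log2 ratio was -2.16, and without the 1% of cells with most Cxcl13 the ratio was -2.95. In mesothelial cells Cxcl13 was at 13.7 and 14.5 CPM, within counting error of each other, and 1 Tom- cell held 356 of the 468 UMIs. Without barcodes listed in both libraries they were 1.35 (3 UMIs) and 4.12 CPM.

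For Cxcl14 the stromal levels were 30.3 CPM (28.8 to 31.9) and 75.3 CPM (73.1 to 77.6), with a Tom+ over Tom- log2 ratio of -1.31 (-1.40 to -1.23). The ratio was -2.03 without cells holding markers of other types. The shares of thinned stromal cells were 5.92% (5.12 to 6.80) and 11.5% (10.6 to 12.4), or 9.84% and 15.8% unthinned. Mesothelial cells had 8.45 and 14.7 CPM, or 27.9% and 19.5% of the stromal level, above the median of the stromal markers there (11.5% and 15.4%) and inside their range. How much of it came from stromal RNA was not tested. The mesothelial log2 ratio of -0.80 (-1.27 to -0.35) was -0.23 without the 1% of cells with most Cxcl14. At least 50% of its stromal UMIs were held by 33 Tom+ and 78 Tom- cells, more than for Cxcl13 and fewer than for Cxcl12.

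Cxcl16, the membrane-bound member, was with Cxcl10 one of 2 chemokines higher in the mesothelium. It was at 48.4 and 64.7 CPM in stromal cells and at 130 and 135 CPM in mesothelial cells, log2 ratios of mesothelial over stromal of 1.42 (1.30 to 1.55) and 1.06 (0.99 to 1.12). After thinning, 40.8% (34.6 to 47.2) and 43.3% (41.0 to 45.6) of mesothelial cells had a UMI, against 18.8% (17.5 to 20.2) and 24.6% (23.4 to 25.9) of stromal cells (82.0% and 76.2% against 41.8% and 44.3% unthinned). Between the libraries the mesothelial ratio was -0.05 (-0.17 to 0.06) and the stromal ratio -0.42 (-0.49 to -0.35). No cell held more than 37 UMIs, and the positive cells held 1.2 to 1.49 each on average after thinning.

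Over the 9 genes, 2 were higher and 5 lower by at least 2-fold in mesothelial than in stromal cells of the Tom+ library, and 2 higher and 7 lower in the Tom- library. The shares of all genes past that fold were 13.1% higher and 10.1% lower of 10240 genes in the Tom+ library, and 11.9% higher and 9.22% lower of 10019 genes in the Tom- library. The median log2 ratio of the 9 was -1.50 and -2.36, against 0.11 and 0.14 for all genes.

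**Figure D3:**
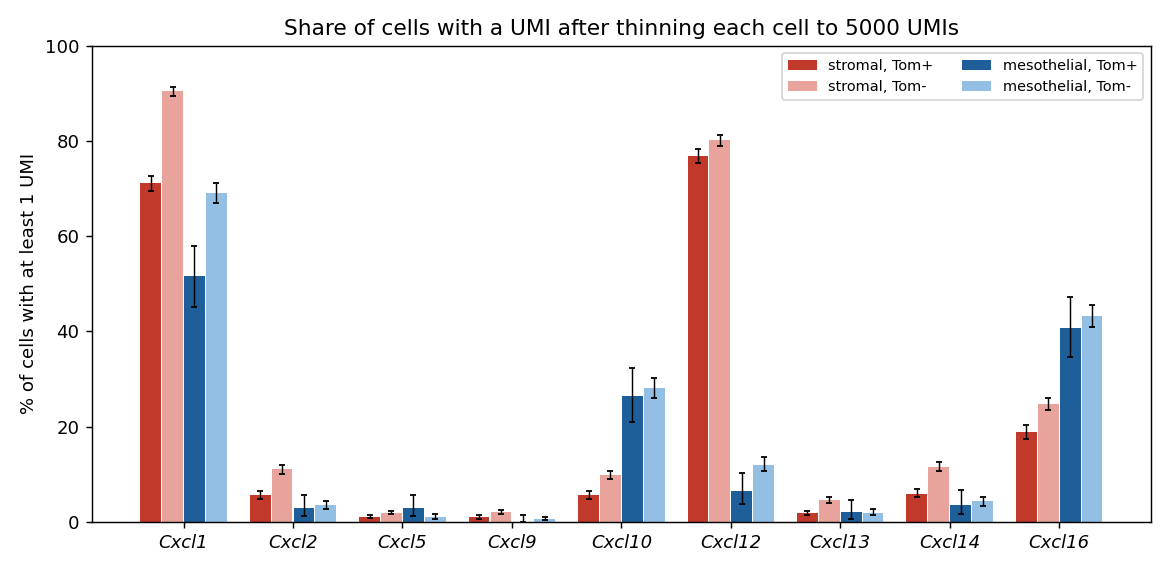
Share of cells with at least 1 UMI of each chemokine after each cell was thinned to 5000 UMIs, with exact Clopper-Pearson 95% intervals; cells with fewer UMIs (0 to 253 a group) were left out. Cxcl1 and Cxcl12 reached most stromal cells, Cxcl10 and Cxcl16 more mesothelial than stromal cells, and Cxcl5, Cxcl9 and Cxcl13 under 5% of any group.

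**Figure D4:**
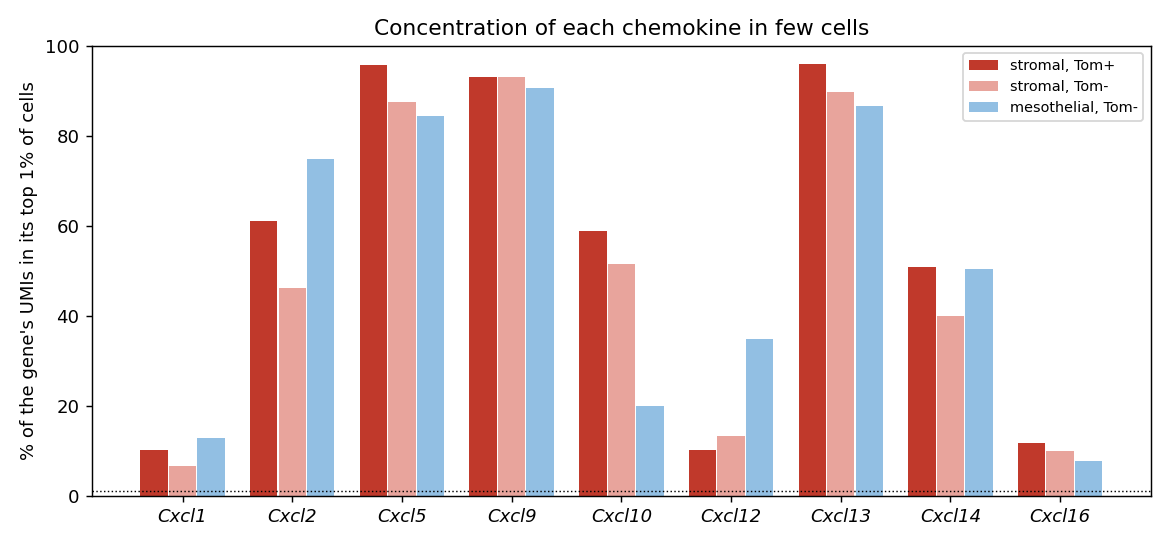
Percent of each chemokine's UMIs held by the 1% of cells with most UMIs of it; the dotted line marks 1%, where all cells would hold the same (Tom+ mesothelial cells are left out, as 1% of them are 2 cells). In stromal cells Cxcl5, Cxcl9 and Cxcl13 lie at 87.5% to 95.9% and Cxcl1, Cxcl12 and Cxcl16 at 6.55% to 13.3%.

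To see which transcriptional states carried each chemokine, stromal cells of each library were ranked by the share of their UMIs on a gene list and split into 3 equal ranges of 1087 to 1088 Tom+ and 1600 Tom- cells. Depth was similar over the ranges of the NF-kappaB list, at a median of 14188, 14877 and 13476 UMIs in the Tom+ library. The ranges are parts of a score, not cell types, and all ratios here are descriptions across cells of 1 library.

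Ligands of CXCR2 went with the NF-kappaB feedback list, whose 9 genes (Nfkbia and Tnfaip3 among them) are known targets or regulators of NF-kappaB, several of them inhibitors. Cxcl1 was at 670 CPM in the lowest and 3986 CPM in the highest Tom+ range, and at 1930 and 8619 CPM in the Tom- library. Cxcl2 went from 10.4 to 144 CPM and from 12.5 to 448 CPM, a 13.8-fold and 35.7-fold difference between the ranges. Both promoters shown above hold a kappaB match, and whether it bears on these differences was not tested. Cxcl5 was 22.0-fold and 11.2-fold higher in the highest range, on few cells. Cxcl10, with 2 kappaB stretches, was 7.15-fold and 8.57-fold higher there, and Cxcl13, with none, 4.62-fold and 15.1-fold. Cxcl9 and Cxcl14 held no kappaB match either. The level in the highest range was 8.76-fold and 1.23-fold that in the lowest for Cxcl9, and 1.80-fold and 0.927-fold for Cxcl14. The Cxcl9 value of the Tom+ library rests on few cells, as 1 cell held 309 of the 457 UMIs of its highest range. Cxcl12 and Cxcl16 differed by 1.25-fold to 1.34-fold between the ranges in both libraries.

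Along the interferon response list both CXCR3 ligands were higher. Cxcl9 was at 1.5 CPM in the lowest and 38.7 CPM in the highest Tom+ range, and at 2.26 and 107 CPM in the Tom- library. Cxcl10 was at 27.8 and 74.7 CPM, and at 45.6 and 178 CPM. Cxcl5 (47.5-fold and 7.72-fold) and Cxcl13 (8.09-fold and 1.71-fold) were higher too, on few cells, whereas Cxcl1 differed by 1.13-fold and 1.07-fold. Of stromal cells, 23.0% and 23.9% had no UMI of the list and so tied at its lowest level.

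Cxcl14, Cxcl12 and Cxcl16 were higher along the preadipocyte list and lower along the interstitial progenitor list in both libraries. Along the preadipocyte list (Pparg, Fabp4, Icam1 and 3 others) Cxcl14 was at 10.1 CPM in the lowest and 57.2 CPM in the highest Tom+ range, and at 29.1 and 122 CPM in the Tom- library. Along the interstitial progenitor list (Pi16, Dpp4, Sema3c, Cd55, Anxa3) it ran the other way, from 54.9 to 5.83 CPM and from 128 to 19.4 CPM. Cxcl12 did likewise with smaller differences, 2.22-fold and 1.42-fold higher in the highest preadipocyte range, and from 709 to 403 CPM and from 1163 to 418 CPM along the interstitial list. For Cxcl16 the highest range was at 1.66-fold and 1.26-fold the lowest along the preadipocyte list, and at 0.633-fold and 0.584-fold along the interstitial list. Cxcl5, on few cells, was at 0.197-fold and 0.229-fold along the interstitial list. Along the preadipocyte list it was at 5.49-fold in the Tom+ and 0.0487-fold in the Tom- library. Cxcl1 was 1.37-fold and 1.32-fold higher in the highest interstitial range.

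The early response list (Fos, Jun, Atf3 and 9 others), which tissue dissociation is known to induce, summed to 25597 CPM in Tom+ and 30746 CPM in Tom- stromal cells. Cells in its highest range were shallower than those in its lowest, at a median of 12510 against 16516 Tom+ and 10132.5 against 12666.5 Tom- UMIs. Cxcl1 was lower in them, at 1756 CPM in the highest and 2095 CPM in the lowest Tom+ range, and at 3395 and 6291 CPM in the Tom- library. Within the ranges of this list the Tom+ over Tom- log2 ratio of Cxcl1 was -1.59, -1.40 and -0.95 from the lowest to the highest. The ranges were cut within each library, so they do not match in list level. The list was at 16157 (Tom+) and 19088 CPM (Tom-) in the lowest and 38037 and 45131 CPM in the highest range. Along the immunoglobulin list Cxcl1 hardly differed (1773 against 1980 CPM, and 4731 against 5128 CPM), while Cxcl13 was 5.66-fold and 2.36-fold higher in the highest range.

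**Figure D5:**
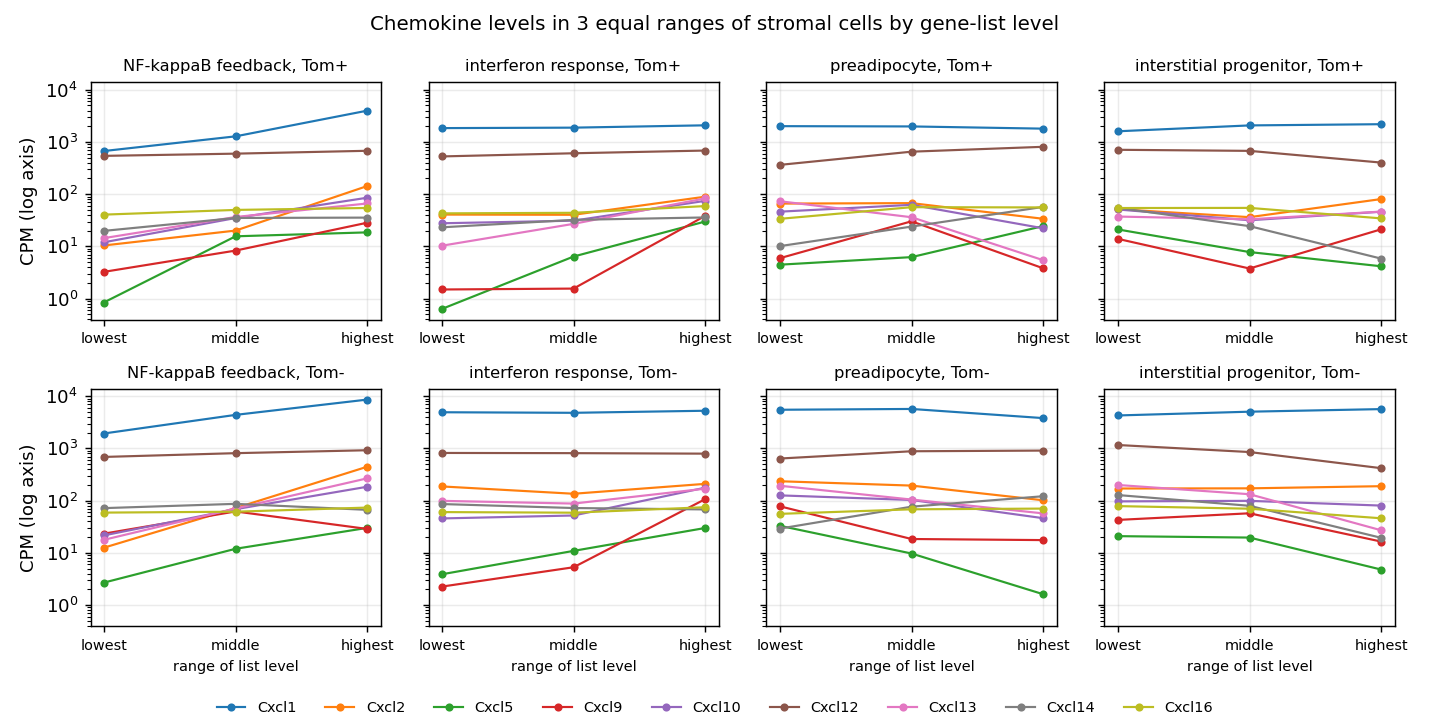
Level of the 9 chemokines (CPM, log axis) in stromal cells split into 3 equal ranges by the share of UMIs on a gene list, for 4 lists (columns) and both libraries (rows). In both rows the highest range lies above the lowest for Cxcl1 and Cxcl2 on the NF-kappaB list, for Cxcl9 on the interferon list and for Cxcl14 on the preadipocyte list, and below it for Cxcl14 on the interstitial list. The Cxcl9 points rest on few cells.

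Over single stromal cells, 9487 genes of at least 5 CPM in each library were compared with each chemokine by the Pearson correlation of log-scaled UMIs (3263 Tom+ and 4800 Tom- cells). These cells share library, depth and base composition, so the values are descriptions. Nfkb1, a subunit gene of NF-kappaB that is not on the list above, was closest to Cxcl1 (r = 0.50 in Tom+ and 0.55 in Tom- cells), followed by the histone demethylase gene Kdm6b (0.48 and 0.49) and Gm12840 (0.49 and 0.48). For Cxcl2 the closest were Nfkb1 (0.28 and 0.29), the monocyte chemokine gene Ccl2 (0.28 and 0.27) and Cxcl1 itself (0.25 and 0.28), the highest value between any pair of the 9. Cxcl12 was closest to Cygb (0.35 and 0.37), Sparcl1 (0.44 and 0.33) and Gpx3 (0.43 and 0.31). Cxcl14 was closest to Meox1 (0.28 and 0.24), Cd300lg (0.24 and 0.23) and Cygb (0.24 and 0.23). The sparse Cxcl9 and Cxcl13 had 1 gene each at 0.2 or more in both libraries, Ifi47, an interferon-induced GTPase gene (0.21 and 0.23), and Tmem176a (0.23 and 0.22). None was found for Cxcl5, Cxcl10 and Cxcl16.

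The sorted fractions also differed in reporter RNA. A tdTomato UMI was found in 934 of 3263 Tom+ and 629 of 4800 Tom- stromal cells, a split made with the values known. Cxcl1 was at 1913 CPM in Tom+ cells with and 1941 CPM in Tom+ cells without such a UMI, close to each other and far from the Tom- cells with (4867 CPM) and without (5023 CPM) one. Cxcl12 was at 518 and 649 CPM in the Tom+ library and at 801 and 810 CPM in the Tom- library. Cxcl10 ran the other way, at 63.8 CPM with and 33.0 CPM without a tdTomato UMI in Tom+ cells, and 144 and 83.1 CPM in Tom- cells. Cxcl13 did as well, at 62.6 and 26.6 CPM, and 189 and 107 CPM. Cxcl2 was higher with the UMI in Tom+ cells (72.8 against 47.0 CPM). In Tom- cells its counting intervals overlapped (167 CPM, 159 to 176, against 179 CPM, 175 to 183). Cxcl5 and Cxcl16 were lower with the UMI in both libraries, Cxcl5 at 7.90 against 13.7 CPM and 5.54 against 16.6 CPM. Cxcl9 was lower with the UMI in Tom+ cells. In Tom- cells the Cxcl9 counting intervals overlapped (32.3 to 40.5 CPM with and 37.2 to 40.7 CPM without the UMI). Cxcl14 differed little, at 31.9 against 29.5 CPM and 76.2 against 75.2 CPM. Cells with the UMI were deeper, at a median of 15214.5 against 13948 UMIs in the Tom+ and 11963 against 11187 in the Tom- library.

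Apart from Pf4, the other CXC ligands were nearly absent from these cells. Of 5 measured (Cxcl3, Cxcl15, Cxcl17, Pf4, Ppbp), only Pf4, a ligand of platelets and macrophages, averaged 5 CPM or more, with 12.8 (Tom+) and 1.80 CPM (Tom-) in stromal cells and 59.0 and 2.13 CPM in mesothelial cells, and it was past 1.5-fold higher in both classes. The macrophage genes named above were higher in the same groups, and their part in the Pf4 level was not tested.

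The 10 receptor genes listed were Cxcr1 to Cxcr6 and Ackr1 to Ackr4, and not all of the latter are specific to CXC ligands. Of the 10, 3 passed the level filter in stromal cells and 1 in mesothelial cells. The scavenging receptor gene Ackr3, which binds CXCL12, was by far the highest, at 451 and 561 CPM in stromal and 299 and 331 CPM in mesothelial cells, within 1.5-fold between the libraries. Ackr2 was at 23.2 and 13.9 CPM in stromal cells, higher by over 1.5-fold in Tom+ and the only one of these 3 past the fold, and Ackr1 at 4.79 and 6.79 CPM. The signalling receptors Cxcr1 to Cxcr6 all averaged under 5 CPM in both classes. Cxcr4, the CXCL12 receptor, was the highest of them in stromal cells, at 4.13 and 1.68 CPM (log2 ratio 1.30, 0.95 to 1.66), on 211 and 97 UMIs. The immune markers were higher in Tom+ stromal cells as well (1979 and 975 CPM, of which 1577 and 825 were Jchain). The part of immune cells in the Cxcr4 level was not tested. Cxcr1 had no UMI in any group.

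All 5 genes for enzymes that cut these ligands were measured above 5 CPM. Stromal Mmp14 had 419 (Tom+) and 256 CPM (Tom-) and was the only one past 1.5-fold between the libraries, whereas Mmp2, whose product cleaves CXCL12, was at 825 and 553 CPM (log2 ratio 0.58, 0.56 to 0.60). Dpp4, which trims several CXC ligands, was higher in mesothelial cells, at 278 and 265 CPM against 60.7 and 50.7 CPM in stromal cells. The sheddases of CXCL16, Adam10 and Adam17, were at 39.3 and 33.6 CPM and at 44.9 and 35.1 CPM in stromal cells.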

How the data were processed

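The authors counted UMIs (unique molecular identifiers) per gene and barcode with Cell Ranger 3.0.2 on mm10, per the labels, and deposited whole-number counts without normalization for 1 Tom+ and 1 Tom- library (61119807 and 96872394 UMIs). Only these counts were used. The members and gene lists were chosen with earlier results of these data known. Named genes were the 9 members, pathway genes averaging 5 CPM or more, and, for each member, up to 3 genes with a correlation of at least 0.2 in both libraries. Cxcr4, Cxcr1 and the rarer CXC ligands were named although they averaged less. UMIs were summed per library and cell class and scaled to CPM of the class total. Intervals are 95% exact Poisson for levels, Clopper-Pearson for shares, and exact conditional for ratios, and cover counting error only, not the spread between cells, animals or preparations. No test was run, since there was 1 library per group; genes past 1.5-fold (libraries) or 2-fold (classes) were counted. Where 0 UMIs were found, the limit is 3 counts. No doublet caller was run; cells with 5 to 9 mesothelial UMIs were in neither class, and mesothelial cells with at least 10 UMIs of stromal markers (35 Tom+ and 273 Tom-) were left out in an alternative. Promoters were RefSeq windows and gene positions those of GENCODE vM21 on GRCm38; whether the authors counted with that annotation is not given in the sources used here. Alternatives were other class and mitochondrial limits, size factors, equal cell weights and left-out cells. The scripts ran in Python 3.11.15 with numpy 2.4.6 and scipy 1.17.1 and were tested on simulated counts.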

Additional observations from a re-analysis of the deposited data

Results flagged for a closer look

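Cxcl2 and Cxcl5 were picked out because their Tom+ over Tom- ratios point in opposite directions in the 2 cell classes, with both counting intervals clear of 0. The log2 ratio of Cxcl2 was -1.67 in stromal and 0.72 in mesothelial cells, and that of Cxcl5 was -0.35 in stromal and 1.01 in mesothelial cells. With 1 library per sorted group the difference between the classes was not tested. The mesothelial Cxcl2 ratio was -0.49 without cells holding macrophage UMIs.

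Cxcl5 and Cxcl14 were also picked out because of barcodes with at most 1000 genes, which no comparison used. In those 1892 Tom+ and 4969 Tom- barcodes Cxcl14 was at 704 CPM (664 to 745) and 875 CPM (846 to 905), against 30.3 and 75.3 CPM in stromal cells, and a Cxcl14 UMI was found in 351 and 986 of them. Cxcl5 was at 101 CPM (86.5 to 118) and 110 CPM (99.9 to 121). The Tom+ values came with the barcodes listed in both libraries, which made up 88.7% of these Tom+ and 38.5% of these Tom- barcodes. Without them Cxcl14 was at 5.57 CPM in the Tom+ and 838 CPM in the Tom- library, and Cxcl5 at 8.35 and 98.3 CPM. Spp1, the osteopontin gene, named after its values were seen, was at 3139 and 4097 CPM in these barcodes (2.78 and 3657 CPM without the listed ones) and at 3.05 and 4.85 CPM in stromal cells.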

How the results depend on the processing

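In stromal cells each of the 9 Tom+ over Tom- log2 ratios stayed negative in all 10 alternatives. Their median was -1.22 with a mitochondrial share under 5% and -1.20 with each cell weighted equally. It was -1.57 without the 1% of cells with most UMIs of the gene. Without barcodes listed in both libraries it was -1.53, and without immunoglobulin-rich cells -1.14. Without cells holding markers of other types it was -1.69. That left out 2022 of 3263 Tom+ and 256 of 4800 Tom- cells, each with at least 10 UMIs of such markers together. Far fewer, 145 and 66, spent over 1% of their UMIs on immunoglobulin genes. In mesothelial cells the median was -0.13 with equal weights, -0.16 without cells holding stromal markers, -0.13 without the top 1% of cells, -0.48 without listed barcodes and -0.77 without macrophage UMIs. There 1 member was higher with equal weights, without other-type cells, without listed barcodes and without macrophage UMIs, and 2 were lower without cells holding stromal markers and without the top 1%. Mesothelial Cxcl2 turned to -2.70 (a bound on 0 UMIs in the 50 Tom+ cells left) without other-type cells. It turned to -0.26 without listed barcodes and to -0.49 without macrophage UMIs. For mesothelial over stromal cells of the Tom+ library, leaving out the top 1% gave a median of -0.68, with 4 members higher and 3 lower, and turned Cxcl13 to 1.51. In the Tom- library the median was -2.52 with size factors (1 member higher), -2.54 with equal weights, -2.51 without other-type cells, -2.64 without cells holding stromal markers and -2.64 without the top 1%. The cause was not tested. Mesothelial Cxcl9 gave no value where Tom+ cells held 0 UMIs and the limit did not settle the direction, in 2 of the 10 alternatives. With all genes that had a UMI in both sums, the background was 14.2% higher and 11.4% lower in stromal cells, 13.9% and 6.16% in mesothelial cells, and 21.9% and 18.1% higher and 11.9% and 14.7% lower between the classes. Thinning to 3000 in place of 5000 UMIs moved 26 of 36 shares beyond their interval. Cxcl5, Cxcl9 and Cxcl13 rest on few cells, which the counting intervals do not cover. Mesothelial Cxcl10 took a positive ratio in 2 alternatives (0.16 and 0.09). No paired analysis was possible because each sorted group has 1 library and no ratio comes from a test.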
